A study of Oryza sativa with 12 samples.

Results

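Genes annotated as disease resistance proteins were examined in the shoot apical meristem (SAM) of rice (Oryza sativa). Most genes with this annotation encode NLR proteins, the intracellular immune receptors with a nucleotide-binding domain and leucine-rich repeats. A row of the deposited SAM table was a member if its description held the words "disease resistance protein" and its counts over the 6 SAM libraries summed to at least 30. The rule also left out the first locus numbers of chromosomes 11 and 12, and rows with 0 counts throughout 1 genotype and at least 30 in each library of the other. In the table of 38867 genes, 198 rows held the words, 49 of them fell short of the summed count (23 had 0 counts in all 6 libraries), and 149 were members. The other 2 exclusions removed 0 rows, so the members were in effect chosen by their summed count and description alone.

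The study compared myb110 plants, mutant in the MYB transcription factor gene MYB110, with wild-type (WT) plants, in a series on flowering time. Plants grew in the field and were collected 1 month after transplanting, as SAM or as the first new leaf blade of the main stem. The comparison here is myb110 SAM against WT SAM, with 3 libraries per genotype and 20 plants pooled in each, so p-values reflect how pools varied, not single plants. The sources used here give neither the mutant allele nor the cultivar. The blade was not analysed here, because the columns of its table could not be matched to labelled samples.

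Libraries held 14112966 to 18896372 deposited counts. Correlations of log CPM (counts scaled to library size) were 0.984 to 0.987 within a genotype and 0.942 to 0.949 between genotypes. The locus taken as MYB110 from general knowledge, Os10g0478300, had 0, 0 and 0 counts in myb110 against 5.67, 0 and 1.47 in WT, too few to test. Of the 8 SAM markers, 6 could be tested, and their summed level was 488 to 517 CPM in myb110 and 501 to 510 CPM in WT. Of the 6, the homeobox gene OSH1 fell (log2 −0.09 ± 0.03, adjusted p = 0.0337, edgeR) and 5 did not pass, and the marker TAB1 was at 0 counts in all 6 libraries. Of 14 light-harvesting antenna genes, which mark leaf mesophyll, 12 fell, and their summed level was 290 to 305 CPM in myb110 against 849 to 918 CPM in WT, with none at 0. Their part in the results below was not tested. In bulk tissue, fewer cells of a type and less RNA per cell cannot be told apart.

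NLR proteins recognise effectors that a pathogen delivers into the plant cell and set off a strong local defence, often with death of the infected cell. Rice has a large family of such genes, many in tandem clusters, and a large share of them lies on chromosome 11. Some work as pairs of neighbouring genes, in which a sensor such as RGA5 or Pik-1 binds the effector of the blast fungus and a helper such as RGA4 or Pik-2 starts the response.

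By annotation, 35 members were named after RGA2, a receptor of wild potato, 34 after the rice sensor RGA5, 26 after the rice Pik receptors and 26 after RPM1, an Arabidopsis receptor. A further 6 were named after the helper RGA4, and 22 had other names. Among those 22, Os02g0232500 was annotated as Cf-2.1-like, after a tomato receptor of the cell surface and not an NLR. Os01g0621900 and Os12g0285100 carried the bare words of the rule. Domains were not checked, and the label rests on annotation. The locus number placed 136 members on a chromosome, 48 of them on chromosome 11, and 13 were assembled genes without one. A total of 26 members belonged to the plant-pathogen interaction pathway of the table. Members of clusters can be near-identical copies, and the counting is not stated to handle shared reads or strand, so values of close copies and overlapping genes are uncertain. In 30 members some counts were not whole numbers.

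Most members were transcribed at low levels in the SAM. Length-scaled levels (FPKM, counts scaled by gene length and library size) averaged over the 6 libraries ran from 0.0815 to 242 per member, with a median of 2.88 against 10.1 for all tested genes. A mean of at least 1 FPKM was reached by 111 of the 149 members and of at least 10 FPKM by 25. The median member was at 2.66 FPKM in myb110 and 3.21 FPKM in WT.

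The 5 highest levels belonged to Os01g0621900, Os12g0285100, Os02g0232500, the RGA5-annotated Os12g0516300 and the RPM1-annotated Os06g0146100. Os01g0621900 was at 243.7 ± 2.04 FPKM in myb110 and 241.2 ± 10.3 FPKM in WT (SD, n = 3 each, as for all levels below). The genotypes overlapped on this scale, whereas the CPM were 468, 473 and 469 in myb110 against 528, 495 and 489 in WT. Its edgeR log2 change was −0.10 ± 0.03 (adjusted p = 0.00541), but the sign turned to 0.016 with FPKM in place of counts, and without WT replicate 1 the call was lost (adjusted p = 0.0948; over all alternatives 0.000904 to 0.790). Os12g0285100 averaged 99.9 ± 0.57 FPKM in myb110 and 87.5 ± 1.73 FPKM in WT. Os02g0232500 averaged 31.8 ± 1.22 FPKM in myb110 and 28.0 ± 0.24 FPKM in WT. The level of Os12g0516300 was 27.1 ± 1.36 FPKM in myb110 and 24.3 ± 0.32 FPKM in WT, a difference that did not pass (edgeR adjusted p = 0.177). Os06g0146100 fell by 0.26 ± 0.04 on the log2 scale (adjusted p = 1.33e-05, edgeR), with 19.3 ± 0.36 FPKM in myb110 and 23.1 ± 0.32 FPKM in WT. In the order of levels, neighbouring members of these 5 were separated by more than their spread in each genotype.

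**Figure D1:**
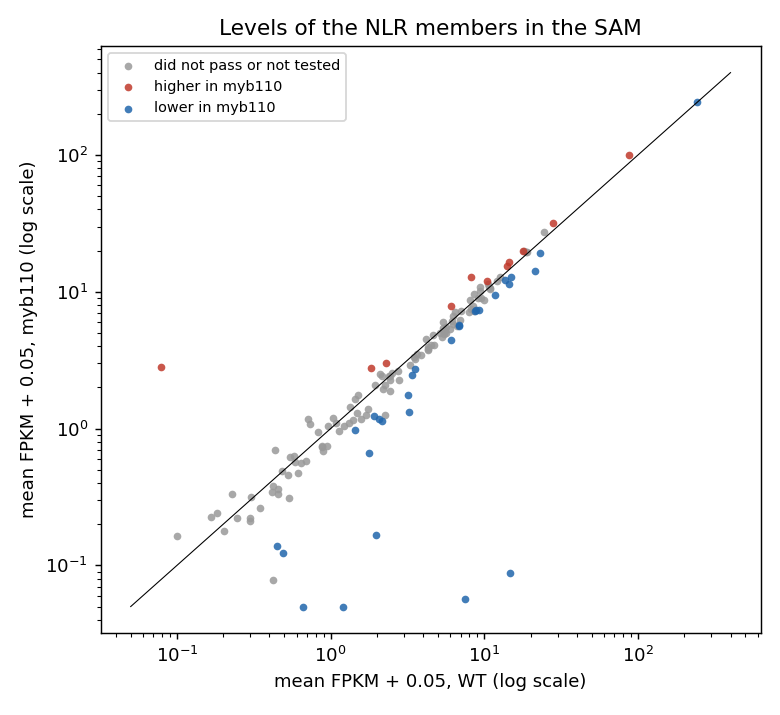
Mean FPKM of each of the 149 members in myb110 (vertical axis) and in WT (horizontal axis), on log axes after adding 0.05, with the line of equal levels. Most points lie near the line between 0.1 and 30 FPKM, while the members with almost no reads in 1 genotype lie far from it, 4 below the line and 1 above it.

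Of the 149 members, 139 had enough counts to be tested, and the other 10 had summed counts of 30 to 73. Between genotypes, 11 members rose and 29 fell in myb110 by edgeR's quasi-likelihood test (Benjamini-Hochberg adjusted p below 0.05), and 99 did not pass. Over all 23167 tested genes, 22.6% passed, 10.9% rising and 11.7% falling, against 28.8% of the members. Among the 15573 tested genes of similar abundance, within the middle 80% of the members' CPM, 18.7% passed. The median log2 change was −0.13 over the members, with quartiles of −0.29 and 0.08, and 0.00 over all tested genes. The log2 change was below 0 in 90 members and above 0 in 49. Because the rule used counts of both genotypes, these counts describe the members and support nothing about them. Of the members tested, 9 reached the filter with fewer than 10 counts in every library of 1 genotype and so had to differ.

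Of the 40 members that passed, 23 changed by less than 1.5-fold, against 3678 of the 5233 genes that passed over the whole table. A change of at least 2-fold was seen in 10 members, 1 that rose and 9 that fell. Over all tested genes 3.63% changed this much, 1.4% up and 2.23% down, and 3.76% of the genes of similar abundance did. Of those 10 members, all but Os11g0654800 and Os09g0267800 had fewer than 10 counts in every library of 1 genotype. Those with so few counts reached the filter only through the other genotype. The genotypes did not overlap in CPM in 59 members, 14 higher and 45 lower in myb110. Over all tested genes, 36.1% did not overlap, 17.8% higher and 18.3% lower. Calls held in each of the 6 fits without 1 library for 23 of the 40 members, 5 that rose and 18 that fell.

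Calls were also counted by the name in the annotation, beside the 22.6% of all tested genes that passed. Of the 32 tested RGA5-annotated members, 2 rose and 10 fell (37.5% passed), and the median of their log2 changes was −0.13. Of the 23 tested Pik-annotated members, 5 rose and 7 fell (52.2%), with a median of −0.16. None of the 6 RGA4-annotated helpers passed by edgeR, with 2 of them under an unadjusted p of 0.05 and a median of −0.22. Of the 24 tested RPM1-annotated members, 6 fell and 0 rose (25%), with a median of −0.18. The 32 tested RGA2-annotated members had 2 rises and 3 falls (15.6%) around a median of −0.14. The remaining 22 had 2 rises and 3 falls (22.7%) around a median of −0.07. Differences between these annotation groups were not tested.

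**Figure D2:**
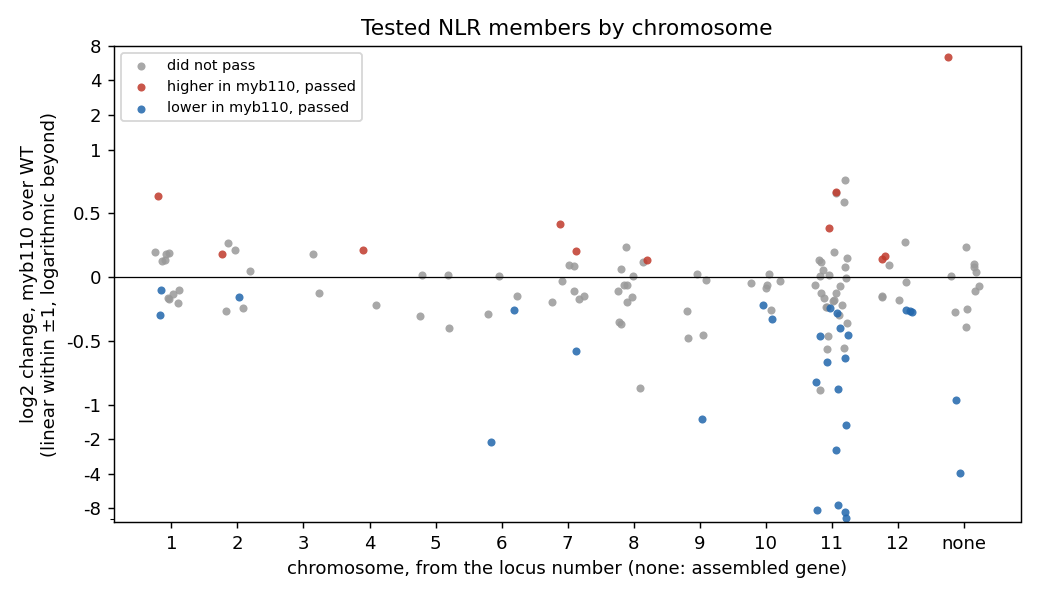
Log2 change of myb110 over WT for the 139 tested members, by chromosome, with 1 point per gene; the axis is linear within 1 of zero and logarithmic beyond. Chromosome 11 holds 6 of the 9 falls of at least 2-fold, and points elsewhere lie mostly within 0.5 of zero.

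Chromosome 11 held 45 tested members, 15 with falls and 2 with rises, around a median log2 change of −0.23. Of the 81 tested members on the other chromosomes, 8 rose and 12 fell, with a median of −0.10. Of the 13 assembled genes, 1 rose and 2 fell. The genes of chromosome 11 that were no members passed in 25.3% of cases, and those of the other chromosomes in 22.3%. Genes at the starts of chromosomes 11 and 12 were counted here. Falls of at least 2-fold numbered 6 on chromosome 11 and 2 on the other chromosomes. Of the 15 falls on chromosome 11, 6 were RGA5-annotated and 6 Pik-annotated. By single chromosome, 5 of 11 tested members passed on chromosome 12, 1 of 13 on chromosome 8, 0 of 4 on chromosome 5 and 0 of 2 on chromosome 3.

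Calls along chromosome 11 were counted in locus order. Locus numbers set only the order of genes, and no coordinates are given because the genome build is not stated. Between locus numbers Os11g0100000 and Os11g0299999, 20 members were tested, 4 fell and 0 rose, all 4 by less than 2-fold. In that stretch, 18.4% of the 566 other tested genes passed, the start of the chromosome included. Between Os11g0500000 and Os11g0699999, 23 members were tested, 11 fell and 2 rose, and their median log2 change was −0.46. Of the 424 other tested genes there, 34.4% passed, 62 up and 84 down. All 6 members of chromosome 11 that fell at least 2-fold lay in this stretch. Among the 424 other tested genes there, 60 (14.2%) also passed with at least a 2-fold change, 17 up and 43 down. The 2 tested members between these stretches did not pass.

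**Figure D3:**
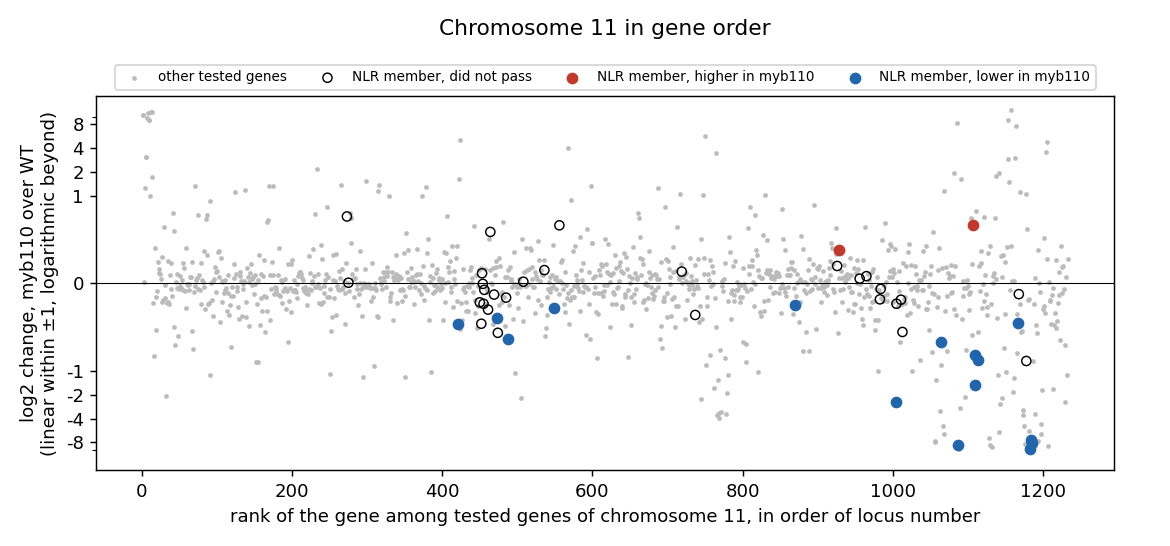
Log2 change of myb110 over WT for every tested gene of chromosome 11, in the order of locus numbers, with members as large circles (filled where they passed) and other genes as small dots; the axis is linear within 1 of zero and logarithmic beyond. The members with large falls sit toward the right end, among other genes with large changes in both directions, and the members near rank 450 stay close to zero.

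Genes next to members were counted in the same way. Around the 17 members of chromosome 11 that passed, the 5 nearest tested genes on each side that were no members came to 125 genes, and 32.0% of them passed. Around the 28 members of chromosome 11 that did not pass, 16.7% of 168 such neighbours passed. Around the 20 members of other chromosomes that passed, 20.3% of 192 neighbours passed. These shares describe the locations and were not tested against each other.

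In 5 members 1 genotype was nearly without reads. A gene was counted as near absent where its pooled CPM was at most 5% of the other genotype's, with at least 30 counts there, a limit chosen after the data were seen. Of the 5, 4 were near absent in myb110 and 1 in WT. Over all tested genes, 0.889% were near absent, 0.553% in myb110 and 0.337% in WT. The share was 2.86% for the other genes of chromosome 11 and 0.57% for the other genes of the other chromosomes. All 4 members near absent in myb110 lay on chromosome 11.

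The RGA5-annotated Os11g0687800 had 1, 0 and 0 counts in myb110 against 366, 519 and 396 counts in WT. The pooled CPM was 1214-fold lower in myb110, with a 95% counting interval of 217 to 47982 (adjusted p = 4.08e-25, edgeR). The RPM1-annotated Os11g0639600 had 5, 0 and 1 counts in myb110 against 779, 1021 and 890 in WT. It was 425-fold lower in myb110, with an interval of 195 to 1159 (adjusted p = 9.90e-28, edgeR). Os11g0687800 thus averaged 0.0237 ± 0.041 CPM in myb110 and 25.6 ± 2.35 CPM in WT, and Os11g0639600 averaged 0.136 ± 0.192 CPM in myb110 and 53.8 ± 1.31 CPM in WT (SD, n = 3 each).

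The other pair had few counts in WT too. The Pik-annotated Os11g0689100 (PIK6-NP) had 0, 0 and 0 counts in myb110 against 37, 51 and 28 in WT, at least 36.6-fold lower (adjusted p = 2.18e-09, edgeR). Os11g0688832 (PIK5-NP) had 0, 0 and 0 counts in myb110 against 18, 29 and 24 in WT, at least 22.4-fold lower (adjusted p = 2.29e-07, edgeR). Both bounds take a floor of 3 counts over the group, and at their bounds both genes still lie far below the members' median. Os11g0689100 missed the exclusion of the membership rule by the library with 28 counts. The member near absent in WT was the RGA5-annotated assembled gene MSTRG.19728. It had 115, 144 and 158 counts in myb110 against 3, 1 and 1 in WT, 88.0-fold higher in myb110, with an interval of 37.4 to 272 (adjusted p = 1.24e-17, edgeR). The place of this gene in the genome is not known here.

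The 4 near-absent members of chromosome 11 stood beside other genes with the same pattern. Of the 21 tested neighbours around them, 66.7% passed and 6 were near absent in 1 genotype. Around Os11g0639600, the row order from Os11g0639000 to Os11g0640800 held 11 genes, of which 7 were tested and all 7 passed, 6 falling and 1 rising. The limits of this stretch and the next were set around near-absent members with the values known, so their counts are description only. Over all tested genes 22.6% passed. Os11g0640000, annotated as an RPP13-like disease resistance protein outside the words of the rule, had 0 counts in myb110 and 330 in WT over the 3 libraries, at least 104-fold lower. Os11g0640300, with the symbol RPM1, had 5 counts in myb110 and 2027 in WT, 384-fold lower with an interval of 164 to 1184. In the opposite direction, Os11g0639100, with the symbol RGA4, had 123 counts in myb110 and 0 in WT, at least 43.3-fold higher. The pattern was not limited to genes with receptor names. Os11g0639300, described as a calcium uniporter protein, had 0 counts in myb110 and 215 in WT.

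The second stretch, from Os11g0685400 to Os11g0689100, held 20 rows and 15 tested genes. Of these, 10 fell, 2 rose and 7 were near absent in myb110, 4 of them no members. Over all tested genes 0.553% were near absent in myb110, and this stretch too was set with the values known. Os11g0686100, described in the table only by its locus number, had 16 counts in myb110 and 5400 in WT, 320-fold lower with an interval of 197 to 560. Os11g0685700, with the symbol WRKY53 and not a receptor name, had 15 counts in myb110 and 496 in WT. Between such genes stood others with ordinary counts in both genotypes, such as Os11g0687100 (symbol WAVH1), with 748 counts in myb110 and 894 in WT. The RGA4-annotated member Os11g0686500 did not pass, with CPM of 1.42, 0.418 and 1.11 in myb110 against 1.93, 1.46 and 2.13 in WT (log2 −0.88 ± 0.38, adjusted p = 0.0955, edgeR). What lies in the genome of either line at these stretches was not tested.

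**Figure D4:**
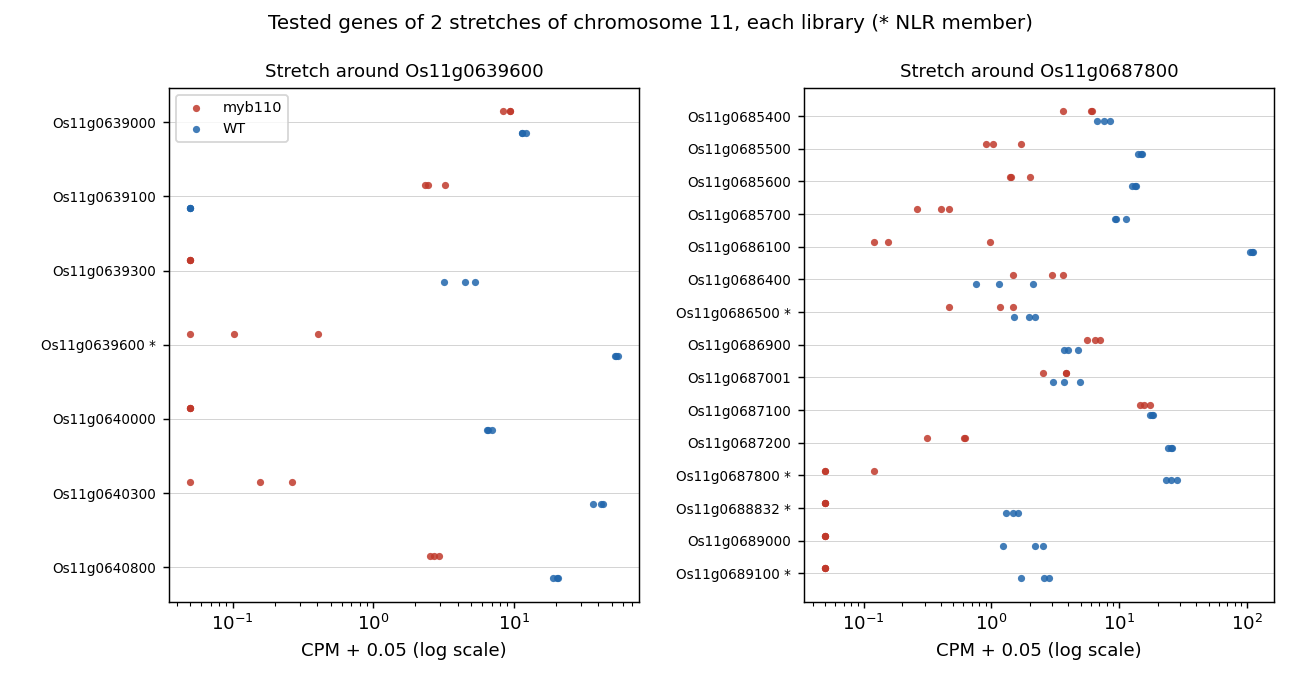
CPM of every tested gene in the stretches around Os11g0639600 and Os11g0687800, with 1 point per library on a log axis after adding 0.05, myb110 drawn above WT and members marked with an asterisk. Genes with myb110 points toward the left edge, at or near 0 counts, stand in runs. In the first stretch the run goes from Os11g0639300 to Os11g0640300. In the second, genes with reads in both genotypes separate Os11g0685700 and Os11g0686100 from the run of Os11g0687200 to Os11g0689100.

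The remaining falls of at least 2-fold kept reads in both genotypes. The assembled gene MSTRG.26734 had 0.213, 0.209 and 0.265 CPM in myb110 against 3.93, 3.30 and 4.08 CPM in WT, a log2 change of −3.97 ± 0.38 (adjusted p = 1.32e-10, edgeR). The Pik-2-like Os11g0604900 had 3, 1 and 7 counts in myb110 against 19, 29 and 18 in WT, a log2 change of −2.48 ± 0.53 (adjusted p = 5.16e-04, edgeR). In both genes the genotypes were far apart, the second resting on few reads. RPM1-annotated Os06g0125000 had 2, 5 and 6 counts in myb110 against 19, 21 and 20 in WT, with a log2 change of −2.11 ± 0.51 (adjusted p = 0.00191, edgeR). That call was lost on log2(FPKM + 1), where the adjusted p was 0.0603, the highest of its alternatives, and the lowest was 0.00191. The RPM1-annotated Os09g0267800 was at 3.06, 1.39 and 1.69 CPM in myb110 against 4.83, 5.51 and 4.96 CPM in WT, a log2 change of −1.33 ± 0.24 (adjusted p = 4.72e-05, edgeR). The RGA2-like assembled gene MSTRG.12221 was lower by just under 2-fold, with 6.04, 6.55 and 5.77 CPM in myb110 against 12.7, 11.1 and 12 CPM in WT (adjusted p = 5.20e-07, edgeR). None of these genes had a myb110 library as high as the lowest WT library. This was required of all of them, because falls were named only where the genotypes were separate. For MSTRG.26734, Os11g0604900 and Os06g0125000 the filter also fixed it in advance. Their myb110 counts were all below 10, so they were tested only through their WT counts.

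A run of 6 Pik-annotated members from Os11g0652100 to Os11g0655700 held changes in both directions. The 4 tested members comprised 1 that rose and 3 that fell. Os11g0652100, named PIK6-NP-like with the symbol RGA4, had 60.7, 57.7 and 61.2 CPM in myb110 against 37.6, 39.6 and 35.9 CPM in WT, a rise of 0.67 ± 0.06 on the log2 scale (adjusted p = 1.49e-11, edgeR). Os11g0654800, named PIK6-NP-like with the symbol PIK-2, had 1.28, 2.16 and 1.69 CPM in myb110 against 5.10, 4.54 and 4.96 CPM in WT, a log2 change of −1.50 ± 0.24 (adjusted p = 5.43e-06, edgeR). In each gene the 3 libraries of a genotype lay close together. That they lay away from the other genotype was required when these changes were named. Os11g0655300 and Os11g0654100 also fell, by 0.88 ± 0.15 and 0.82 ± 0.18 on the log2 scale (adjusted p = 1.50e-05 and 8.74e-04, edgeR), and were named after their values were seen. The last member of the run, Os11g0655700, was just inside the membership threshold, with 0, 1 and 1 counts in myb110 and 6, 13 and 9 in WT.

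Clustering of members was common, and most clusters showed few calls. Counting members as 1 run where at most 10 other rows lay between them, 62 members stood in 22 runs of at least 2. The longest run, of 11 members from Os11g0222900 to Os11g0229500, had 1 fall and 0 rises. It holds the pair annotated RGA4 and RGA5, the names of the helper and sensor of the rice Pia resistance to blast. RGA4 (Os11g0225100) was at 5.60 ± 0.34 FPKM in myb110 and 6.59 ± 0.62 FPKM in WT. Its edgeR log2 change of −0.23 ± 0.09 did not pass (adjusted p = 0.0535), with 0.0186 to 0.300 over the alternatives. It passed by edgeR without myb110 replicate 3 (0.0448), without WT replicate 3 (0.0186) and without the filter on low counts (0.0497). RGA5 (Os11g0225300) was at 8.97 ± 0.39 FPKM in myb110 and 9.41 ± 0.63 FPKM in WT, and did not pass (log2 −0.07 ± 0.07, adjusted p = 0.483, edgeR). The genotypes overlapped in CPM in both genes of the pair.

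Another sensor and helper by name, the neighbours Os11g0684100 (RGA5-like) and Os11g0684700 (RGA4-like), were looked at after their values were seen. The first had 20.1, 19.0 and 19.8 CPM in myb110 against 25.4, 28.1 and 27.2 CPM in WT, a log2 change of −0.46 ± 0.08 (adjusted p = 5.96e-05, edgeR). The second had 13.6, 11.3 and 14.5 CPM in myb110 against 15.6, 13.7 and 13.9 CPM in WT, with overlapping genotypes and no pass (log2 −0.12 ± 0.11, adjusted p = 0.481, edgeR). Whether the 2 changes differ was not tested. The RGA5-like Os11g0629600, also named after its values were seen, fell to 29.2, 29.2 and 27.6 CPM in myb110, against 46.2, 48.5 and 41.4 CPM in WT (log2 −0.66 ± 0.07, adjusted p = 1.51e-09, edgeR). Os07g0141700, with the symbol RGA4, was at 6.58 ± 1.20 FPKM in myb110 and 6.20 ± 0.45 FPKM in WT and did not pass (log2 0.09 ± 0.11, adjusted p = 0.641, edgeR).

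The rises were small apart from MSTRG.19728, Os11g0652100 and Os01g0603100, of which only Os01g0603100 had overlapping genotypes. The next largest with separate genotypes was the Pik-2-like Os07g0599100, with 9.31, 9.97 and 7.25 CPM in myb110 against 6.96, 6.48 and 6.32 CPM in WT, a log2 change of 0.42 ± 0.15 (adjusted p = 0.0400, edgeR). This call was lost without any 1 library other than myb110 replicate 3 (adjusted p 0.0127 to 0.194 over the alternatives). It was also lost with DESeq2 and with limma on either FPKM scale. Os12g0285100 had 250, 254 and 252 CPM in myb110 against 225, 228 and 223 CPM in WT (log2 0.16 ± 0.03, adjusted p = 5.98e-05, edgeR). The Cf-2.1-like Os02g0232500 had 110, 118 and 115 CPM in myb110 against 101, 100 and 102 CPM in WT (log2 0.18 ± 0.04, adjusted p = 8.32e-04, edgeR). These abundant genes had narrow spreads, so that a change near 1.1-fold passed.

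Of the other rises, the RGA2-annotated Os04g0378575 changed by 0.21 ± 0.06 and the PIK6-NP-like Os07g0531900 by 0.21 ± 0.06 on the log2 scale (adjusted p = 0.00814 and 0.00916, edgeR). Both calls were lost with limma on either FPKM scale, where the adjusted p of Os04g0378575 reached 0.0755, the highest of its alternatives, the lowest being 0.00777. The call of Os07g0531900 was also lost without WT replicate 3 (adjusted p = 0.0892, the highest of its alternatives, the lowest being 0.00494). Os12g0467300 and Os08g0296600 rose by 0.14 ± 0.05 each (adjusted p = 0.0444 and 0.0498, edgeR). Both calls were lost in each fit that left out a library other than WT replicate 2 (adjusted p up to 0.195 and 0.166 over the alternatives). Both were also lost with DESeq2, limma on either FPKM scale and a replicate block. The call of Os08g0296600 was lost with library totals only and without the filter too. The remaining rises, Os01g0603100 (log2 0.64 ± 0.18) and Os11g0579400 (log2 0.38 ± 0.11), passed with genotypes that overlapped in CPM (adjusted p = 0.0102 and 0.0124, edgeR). The call of Os01g0603100 was lost without myb110 replicate 1, myb110 replicate 3 or WT replicate 2 (adjusted p up to 0.146), and that of Os11g0579400 without myb110 replicate 2, myb110 replicate 3 or WT replicate 3 (up to 0.0845). Both calls were also lost with limma on either FPKM scale.

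**Figure D5:**
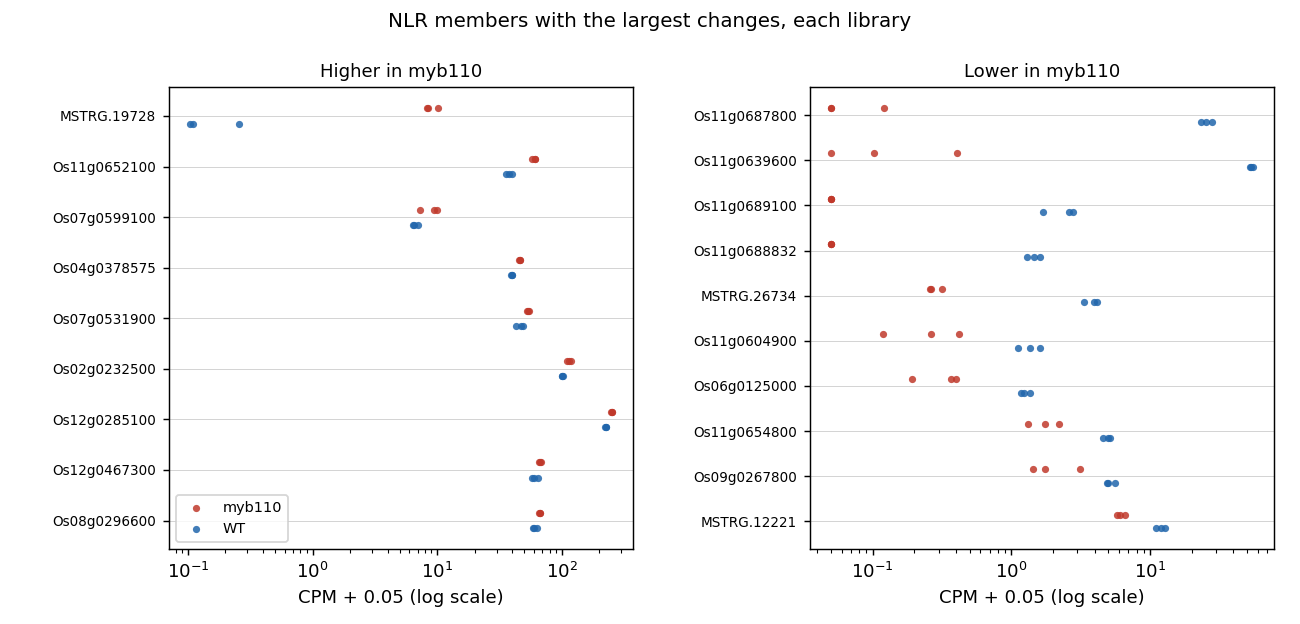
CPM in each library for the members with the largest rises and falls among those that passed with separate genotypes, on a log axis after adding 0.05, with myb110 drawn above WT. On the left, MSTRG.19728 is set apart and the other genes differ little; on the right, 4 genes have myb110 libraries at or near 0 counts.

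At the edge of the rule, Os11g0655700 (summed count 30) and Os03g0573500 (31.54) were the members with the lowest sums. Os07g0117900 (25) and Os04g0205200 (22) were the rows just outside. Os03g0573500 had 2.39, 5.15 and 14.64 counts in myb110 against 3.99, 5.37 and 0 in WT.

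Proteins that act with NLR receptors were examined through a list of 22 loci, of which 20 could be tested. By edgeR, 3 rose, 2 fell and 15 did not pass, so that 25% passed against 22.6% of all tested genes, and their median log2 change was 0.023. Among the chaperones that fold NLR proteins, the HSP90 gene HSP81-1 fell by 0.22 ± 0.02 on the log2 scale (adjusted p = 4.11e-10, edgeR). Its relative HSP81-3 rose by 0.06 ± 0.02 (adjusted p = 0.0435), and the co-chaperones SGT1 and RAR1 did not pass. RAC1, a small GTPase that acts downstream of rice NLR receptors, rose by 0.25 ± 0.07 (adjusted p = 0.00695, edgeR). The NADPH oxidase gene RBOHB had a log2 change of −0.11 ± 0.04 (adjusted p = 0.0308, edgeR). The MAP kinase gene MPK5 had 4.62, 6 and 4.34 CPM in myb110 against 2.62, 3.03 and 3.66 CPM in WT, a log2 change of 0.67 ± 0.21 (adjusted p = 0.0156, edgeR).

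The lipase-like signalling genes EDS1 and PAD4, the salicylate co-activator genes NPR1, NPR2 and NPR3, and the surface receptor genes CERK1, CEBIP, FLS2, BAK1 and SERK2 did not pass. Neither did the receptor-like cytoplasmic kinase genes RLCK185 and RLCK176, or the defence marker PBZ1. The defence markers PR1A and PR1B had too few counts to test. The call of RBOHB was lost with DESeq2 and with limma on either FPKM scale. Without myb110 replicate 2, myb110 replicate 3 or WT replicate 2 it was lost too (adjusted p up to 0.310). The call of MPK5 was lost without myb110 replicate 2, WT replicate 1 or WT replicate 2 (up to 0.118). That of HSP81-3 was lost without myb110 replicate 1, myb110 replicate 2, WT replicate 1 or WT replicate 3 (up to 0.215), and with a replicate block. The list held 3 calls without myb110 replicate 2, WT replicate 1 or WT replicate 2. Of the 154 tested genes of the plant-pathogen interaction pathway that were no members, 11 rose and 25 fell (23.4% passed), and their log2 changes had a median of −0.01.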

How the data were processed

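Poly(A) RNA libraries were read from the SAM table. Its values are estimated counts and FPKM that the authors deposited, per the file headers. The submitters' processing notes name fastp for read cleaning. No source used here gives the aligner, counter, build or annotation. In a library, 12.3% to 13.2% of the estimated counts were not whole. Column names gave genotype and replicate, and the tissue rests on the table's name. A further 24 columns with values per sample were left out.

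Counts were rounded, filtered with filterByExpr (minimum count 10), scaled by TMM (factors 0.998 to 1.002) and tested with edgeR's quasi-likelihood test (edgeR 4.0.16, R 4.3.3), genotype only, with Benjamini-Hochberg adjustment over 23167 genes. Log2 changes are myb110 over WT, with standard errors from edgeR's F. CPM used the TMM-scaled totals of the tested genes. Counting intervals are exact (95%), and with the floor of 3 counts they cover counting error only. Libraries of a genotype differed beyond counting noise (mean chi-square over genes, 2.16 to 2.64 for each pair). Scripts were tested on simulated counts.

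The alternatives were other scalings, DESeq2 1.42.0, no filter, limma 3.58.1 on FPKM, a replicate block, leaving out each library, and other memberships. The members and lists were chosen with earlier results of these data known. Named genes are all rises that passed with separate genotypes (fewer than 10), the 10 largest such falls and the 5 highest levels. Also named are chromosome 11 members that passed at 2-fold, the edge of the count threshold, and cloned rice genes named in the table, the last mostly summarised by group. From the immune list, 4 of 26 loci were dropped because the table annotates them as other genes. No sequences or coordinates were used.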

Additional observations from a re-analysis of the deposited data

How the results depend on the processing

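The 40 calls among the members became 22 with limma on log2(FPKM + 0.1) and 21 on log2(FPKM + 1), and the 17 on chromosome 11 became 11 in each. With a wider set of annotations, chosen after the data were seen, 80 genes passed, 37 of them on chromosome 11. The added rows were not screened for 0 counts throughout 1 genotype, as the members were, so some of them had to differ. The members' median log2 change of −0.13 became −0.090 on log2(FPKM + 1) and −0.11 with a summed count of at least 100. Leaving out 1 library gave 4185 to 4698 calls over all genes (5233 with all 6), 28 to 34 among the members, 12 to 17 on chromosome 11, 3 to 6 in the immune list, and medians of −0.17 to −0.091. DESeq2 called 29 members, 13 of them on chromosome 11. Without the 5 near-absent members, 35 and 13 passed. The replicate numbers are not said to pair the samples. Deviations of same-numbered libraries had correlations of −0.05, −0.04 and 0.01, which cannot show how the samples were collected. With a replicate block 37 members passed, 9 up and 28 down. The block gave 4976 calls over all genes and a median of −0.13. Of the genes followed by name under each alternative, 2 reversed their sign. Os01g0621900 was at 0.016 on both FPKM scales, and Os07g0141700, which did not pass, ranged from −0.068 to 0.16 without 1 library, below 0 without myb110 replicate 2. The causes were not tested. In every alternative fit 21 of the 40 calls held. Leaving out members with near-identical proteins was not run, as it needs protein sequences. Small counts limit the folds of near-absent genes, and pools of plants limit what the p-values cover.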

Other observations

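Receptor genes that the words of the membership rule miss were counted separately. By symbol (RGA1 to RGA5, RPM1, PIK-2 and others) or by descriptions with NB-ARC, NBS-LRR or disease resistance RPP, 130 further rows were found after the data were seen, and 118 of them could be tested. By edgeR, 14 rose, 26 fell and 78 did not pass, around a median log2 change of −0.13. Thus 33.9% passed, against 22.6% of all tested genes. A change of at least 2-fold was seen in 7 that rose and 12 that fell, and 5 were near absent in 1 genotype, 3 in myb110 and 2 in WT. The 2-fold share was 16.1%, against 3.63% over all tested genes, where 0.889% were near absent. On chromosome 11, 37 of these rows were tested, of which 7 rose and 13 fell. That is 54.1%, against 25.3% of the tested chromosome 11 genes that were no members, these rows included. Unlike the membership rule, this search kept rows at 0 counts throughout 1 genotype, so some, such as Os11g0640000, had to differ. Some of the 130 rows are partial gene models beside members, and whether they share reads was not tested.

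Across the genome, near-absent genes were unevenly spread. Chromosome 11 held 38 of them among 1233 tested genes (3.08%), chromosome 12 held 31 among 1238 (2.50%), and assembled genes held 48 among 810 (5.93%). Chromosome 9 held 0 among 1235. All tested genes were counted here, the starts of chromosomes 11 and 12 included. Of the genes that were no members, 9 were near absent between Os11g0100000 and Os11g0299999, 0 in myb110 and 9 in WT. Between Os11g0500000 and Os11g0699999, 23 were near absent, 18 in myb110 and 5 in WT. Members made up 4 of the 38 on chromosome 11, 0 of the 31 on chromosome 12 and 1 of the 48 assembled genes.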
